A study of Mus musculus with 7 samples.

Results

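Protein phosphatase genes whose symbols begin with Ppp and a digit were followed in B cells from the spleens of Batf KO mice. The deposited table of genotype differences held 5 such genes among its 752 genes. They were 4 regulatory subunits of protein phosphatase 1, namely Ppp1r15a, Ppp1r18, Ppp1r3b and Ppp1r42, and 1 catalytic subunit of calcineurin, Ppp3cc. RNA came from magnetic column isolates of 3 Batf KO mice and 4 wild-type mice on the C57BL/6J background. The design text also mentions 2 replicates for the samples without saying what they are, so taking each library as 1 mouse is an assumption behind every n and SD here. All 7 cultures had received 20 µg/mL lipopolysaccharide, a bacterial product sensed by TLR4, and 20 ng/mL IL-4 for 6 h. The knockout is labelled Batf KO only (allele, sex and age not given in the sources used here). Batf reads remained in the Batf KO libraries, at 66.5 ± 3.49 CPM (read counts scaled to a common library total; SD, n = 3), while wild-type libraries had 319 ± 11.2 CPM (SD, n = 4). No unstimulated sample was analysed here, so a level could not be set against resting cells.

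The Ppp family holds serine and threonine phosphatases, which remove phosphate from proteins. Protein phosphatase 1 has few catalytic subunits and a large set of regulatory subunits, many of which bring the enzyme to a particular place or substrate. Calcineurin is activated by calcium and calmodulin, acts on the NFAT transcription factors in lymphocytes, and is the target of cyclosporin A. BATF is an AP-1 family transcription factor that binds DNA with JUN proteins and, in B cells, with IRF4 or IRF8.

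Every gene of the table had passed the authors' own test at a false discovery rate (FDR) below 0.05, so the direction of each listed gene was fixed by the selection, and no listing is independent evidence. The annotation holds 75 protein-coding Ppp genes, 11 of them catalytic and 64 regulatory or inhibitory. Listed were 4 of 43 Ppp1 genes, 0 of 16 Ppp2 genes, 1 of 5 Ppp3 genes, 0 of 6 Ppp4 genes, 0 of 1 Ppp5 gene and 0 of 4 Ppp6 genes. The authors tested 19734 genes and listed 3.81% of them. How many Ppp genes were among those tested is not known here, and a gene outside the table has no value in this report.

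The Batf KO libraries had effective sizes of 23675459 to 30844920 reads, and the wild-type libraries 24891094 to 44728937 reads. Libraries of 1 group differed by 16.6 or more in chi-square per degree of freedom over the listed genes, so none was a second copy of another. The wild-type libraries fell into pairs. Replicates 1 and 2 differed by 18.5 and replicates 3 and 4 by 20.8, whereas libraries of different pairs differed by 33.3 to 49.8. The 3 Batf KO libraries differed by 16.6 to 23.8. In the sample titles, the numbers of wild-type replicates 1 and 2 lie just below and just above those of the Batf KO libraries. The numbers of wild-type replicates 3 and 4 are higher. No label says what sets the wild-type pairs apart, and a link to these numbers was not tested. The Ppp genes were therefore also tested against each pair alone, a choice made after seeing the data. Of 12 B cell markers, 2 were listed, Blk and Ms4a1. Ms4a1, which encodes CD20, was at 879 ± 40.9 CPM (SD, n = 3) in Batf KO and at 580 ± 39.6 CPM (SD, n = 4) in wild type. Of markers of other spleen cells, 1 of 17 T and NK genes was listed, Cd8b1, with 5.24 to 7.42 CPM across Batf KO libraries and 1.48 to 2.59 CPM across wild-type libraries. The platelet gene Pf4 was the single listed gene of 10 erythroid and platelet markers, with 0.760 to 1.04 CPM across Batf KO libraries and 0.281 to 0.627 CPM across wild-type libraries. No gene of 14 myeloid markers was listed. Cd8b1 and Pf4 were higher in Batf KO, as were Blk, Ms4a1, 4 of the 5 Ppp genes and 384 of all 752 listed genes. The part of Cd8b1 and Pf4 in the results was not tested. In bulk RNA, fewer cells of a type and less RNA per cell cannot be told apart.

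Of the 5 genes, 4 had a mean of at least 1 CPM over all libraries and were fitted, and Ppp1r42 was below that level. In edgeR's quasi-likelihood test, adjusted over all 19734 genes, with those outside the table counted as not passing, 1 of the 4 fitted Ppp genes passed. By the same rule 42.9% of the 667 fitted genes passed, 20.1% as higher and 22.8% as lower. Adjusted over the 667 fitted genes alone, 4 of the 4 passed, as did 100% of the fitted genes. The gene that passed was Ppp1r18, and the other fitted genes had adjusted p-values of 0.0651 (Ppp1r15a), 0.0654 (Ppp3cc) and 0.0927 (Ppp1r3b). All 4 had an unadjusted p under 0.05 in edgeR's test, as did 100% of the 667 fitted genes. Each is listed in the authors' deposited table, as is every gene here, so neither point sets the Ppp genes apart. The groups of libraries did not overlap for any of the 5 genes. This held for 94.7% of all listed genes, with Batf KO above wild type in 46.5% and below it in 48.1%, so it says nothing about the Ppp genes. For each of the 5 genes the exact two-sided permutation p, over the 35 ways to assign 7 libraries to the groups, was 0.0286, the smallest the design can give. A gene whose groups do not overlap gives a p at or near this value, so it too says nothing about the Ppp genes.

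**Figure D1:**
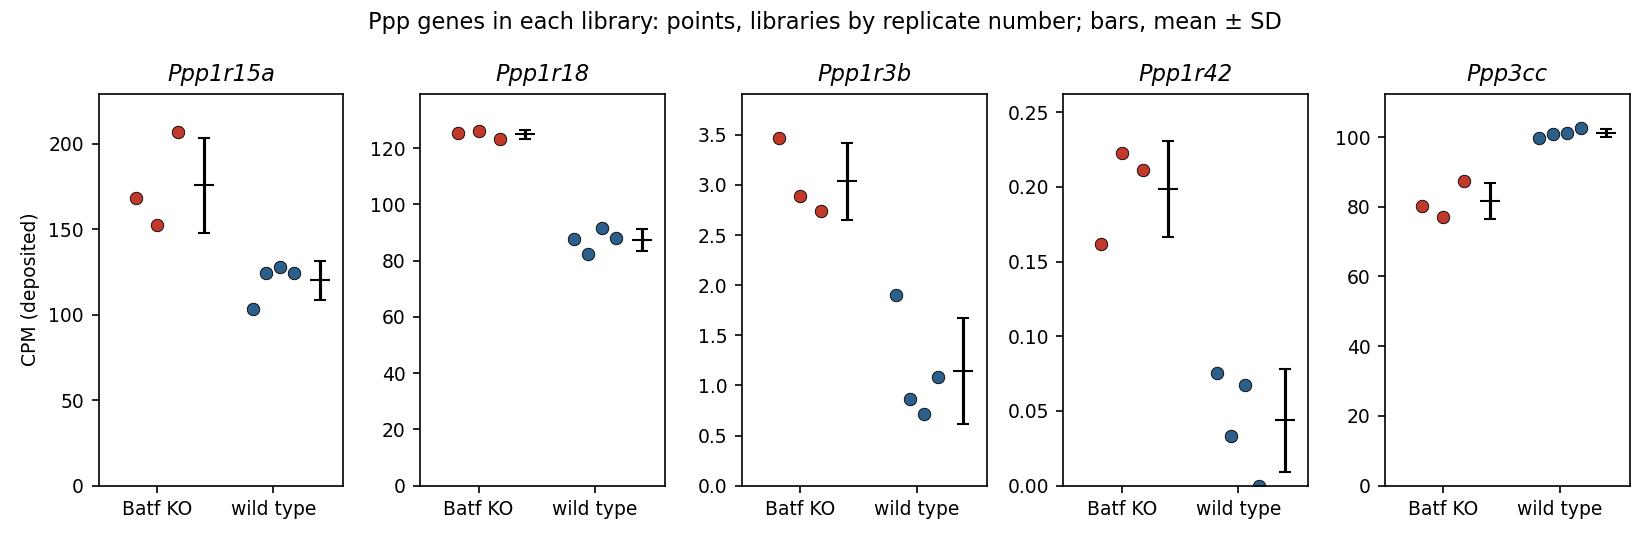
Deposited CPM of the 5 Ppp genes in each of the 3 Batf KO and 4 wild-type libraries, 1 panel a gene, each axis starting at 0. Points are libraries in order of replicate number, and bars are the mean ± SD. The Batf KO points lie above the wild-type points in the first 4 panels and below them for Ppp3cc.

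The RefSeq promoter table (GRCm38.p6) held windows for 2 of the 5 genes, Ppp1r15a and Ppp1r18. The windows run from 250 bases before to 50 bases after an annotated start. They are shown because the motif bound by BATF with JUN, TGANTCA, can be looked for in them. Capitals mark matches on either strand to TGACGTCA, the cyclic AMP response element, and to TATAAA, the core of the TATA box. The Ppp1r15a window lies at chr7:45526219-45526518 on the minus strand, and the most upstream of 4 Ppp1r18 windows lies at chr17:35865345-35865644 on the plus strand.
Ppp1r15a: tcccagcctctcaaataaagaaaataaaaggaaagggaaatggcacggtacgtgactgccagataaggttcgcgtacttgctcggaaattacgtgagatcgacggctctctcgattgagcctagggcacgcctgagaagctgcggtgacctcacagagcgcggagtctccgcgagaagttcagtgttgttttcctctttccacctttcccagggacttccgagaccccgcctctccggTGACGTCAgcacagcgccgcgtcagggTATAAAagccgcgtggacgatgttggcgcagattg
Ppp1r18: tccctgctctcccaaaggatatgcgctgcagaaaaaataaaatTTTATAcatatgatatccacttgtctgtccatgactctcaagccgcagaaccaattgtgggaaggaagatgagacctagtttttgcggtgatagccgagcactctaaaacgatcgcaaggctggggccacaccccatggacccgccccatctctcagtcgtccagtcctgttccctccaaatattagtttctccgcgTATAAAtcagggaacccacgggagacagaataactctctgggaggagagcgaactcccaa
None of the 5 windows of these 2 genes held TGANTCA, which 7.81% of the 32851 windows in the table hold. The Ppp1r15a window held TGACGTCA, beginning 12 bases before the annotated start, a motif found in 1.79% of all windows. TATAAA was found in the Ppp1r15a window, beginning 15 bases after the start, and in the Ppp1r18 window shown, beginning 10 bases before the start, with a further match on the opposite strand. It is in 13.6% of all windows. The other 3 Ppp1r18 windows held none of the 3 motifs. A match is a description of the letters, and a window without one says nothing about binding elsewhere.

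Ppp1r18 was higher in Batf KO by about the same amount in every library. The gene encodes phostensin, which brings protein phosphatase 1 to actin filaments. It lies on chromosome 17, 35865593 to 35875596, plus strand (GRCm38), with 4317 exonic bases. Its level was 125, 126 and 123 CPM in Batf KO replicates 1 to 3, against 87.7, 82.3, 91.6 and 88.0 CPM in wild-type replicates 1 to 4. The groups were separated by a gap of 31.5 CPM, and neither group had a library that stood apart. The means were 125 ± 1.59 CPM (SD, n = 3) in Batf KO and 87.4 ± 3.86 CPM (SD, n = 4) in wild type. Ppp1r18 rose by 0.52 on the log2 scale (SE 0.06), a 1.43-fold increase, and passed edgeR's test (adjusted p = 0.00450). The authors' deposited table lists it with an FDR of 9.55e-07. An antisense gene, Ppp1r18os, shares 70 of its exonic bases and the microRNA gene Gm28033 shares 96, both on the opposite strand. Reads in these shared bases cannot be told apart by gene here. The strand setting of the counting is unknown (not given in the sources used here).

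Ppp1r15a had the highest level of the 5 genes per kilobase of exon in both genotypes. It encodes GADD34, which brings protein phosphatase 1 to the translation factor eIF2α and so ends the translation block of the integrated stress response. The gene lies on chromosome 7, 45522916 to 45526268, minus strand, with 2937 exonic bases, of which 12 are shared with Tulp2 on the opposite strand. Its level was 168, 152 and 207 CPM in Batf KO replicates 1 to 3, against 103, 125, 128 and 124 CPM in wild-type replicates 1 to 4. Batf KO replicate 3 was the highest of the 7 libraries and wild-type replicate 1 the lowest, and the groups were 24.2 CPM apart at their nearest. The mean was 176 ± 27.9 CPM (SD, n = 3) in Batf KO and 120.1 ± 11.3 CPM (SD, n = 4) in wild type. The log2 fold change was 0.55 (SE 0.12), or 1.46-fold, and the adjusted p of 0.0651 in edgeR's test did not pass. In the authors' deposited table the FDR is 5.74e-05. The SD among Batf KO libraries was 15.9% of the mean for Ppp1r15a, and 1.27% of the mean for Ppp1r18.

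Ppp1r3b was a low-abundance gene with the largest fold difference of the 4 fitted ones. Its product, the GL subunit, brings protein phosphatase 1 to glycogen and is best known from liver. The gene lies on chromosome 8, 35375739 to 35388139, plus strand, with 6216 exonic bases. It had 107, 78 and 65 reads (3.47, 2.89 and 2.75 CPM) in Batf KO replicates 1 to 3. In wild-type replicates 1 to 4 it had 76, 26, 32 and 27 reads (1.91, 0.864, 0.715 and 1.08 CPM). Wild-type replicate 1 lay well above the other wild-type libraries and still below each Batf KO library. The mean was 3.04 ± 0.382 CPM (SD, n = 3) in Batf KO and 1.14 ± 0.531 CPM (SD, n = 4) in wild type. The log2 fold change was 1.40 (SE 0.32), or 2.65-fold, and the adjusted p of 0.0927 in edgeR's test did not pass. In edgeR's test this call changed when 1 library was left out, and it also differed between methods. Without wild-type replicate 1 the log2 fold change was 1.80 (SE 0.24) and the adjusted p in edgeR's test was 0.0138. The authors' deposited table lists it with an FDR of 0.000770.

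Ppp1r42 was at the edge of detection. It encodes a leucine-rich repeat protein described in mouse testis, and it lies on chromosome 1, 9968624 to 10009136, minus strand, with 1523 exonic bases. It had 5, 6 and 5 reads in Batf KO replicates 1 to 3, against 3, 1, 3 and 0 reads in wild-type replicates 1 to 4. The count of 0, with 3 reads taken as its upper limit, allows a level of up to 0.121 CPM in that library. Summed, 16 reads in Batf KO and 7 in wild type gave a ratio per library size of 3.92, with an exact 95% counting interval of 1.52 to 11.3. The interval covers counting error only. When genes of any level were fitted, the log2 fold change was 1.91 (SE 0.58) and the adjusted p in edgeR's test was 0.283. The authors' deposited table gives an FDR of 0.0468. Of its exonic bases, 64 are shared with the gene E330040D14Rik on the opposite strand.

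Ppp3cc was the single Ppp gene with a lower level in Batf KO, and its difference was small. It encodes the gamma isoform of the calcineurin catalytic subunit. The gene lies on chromosome 14, 70217865 to 70289471, minus strand, with 2985 exonic bases, 91 of them shared with the antisense gene Gm49417. Its level was 80.3, 77.1 and 87.3 CPM in Batf KO replicates 1 to 3, against 99.8, 101, 101 and 103 CPM in wild-type replicates 1 to 4. The SD among wild-type libraries was 1.10% of the mean, the narrowest spread of any group of the 5 genes, and Batf KO replicate 3 came nearest to them. The mean was 81.5 ± 5.20 CPM (SD, n = 3) in Batf KO and 101 ± 1.11 CPM (SD, n = 4) in wild type, so that Batf KO was at 80.7% of wild type. The log2 fold change was -0.31 (SE 0.07), and the adjusted p of 0.0654 in edgeR's test did not pass. The FDR in the authors' deposited table is 0.0246. With library sizes rescaled by TMM (trimmed mean of M-values) from the listed genes, the log2 fold change was -0.35 and the edgeR adjusted p 0.0477, just inside the threshold. These scaling factors rest on genes that had all been selected for a difference. Among all fitted genes, 112 then passed as higher and 198 as lower, against 134 and 152 in the main test.

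Across all the ways of testing, including those that leave out a library, Ppp1r18 had a log2 fold change of 0.47 to 0.56 and passed each time, except where a change of at least 2-fold was also required. In DESeq2 the other 3 fitted genes passed as well. Of all 667 fitted genes, 253 passed there as higher and 299 as lower, against 134 and 152 in the main edgeR test. Ppp1r15a ranged from 0.42 to 0.64, with the lowest value without Batf KO replicate 3, in which it was highest. Ppp3cc ranged from -0.36 to -0.27. Against wild-type replicates 1 and 2 alone, the log2 fold change was 0.56 for Ppp1r18 (edgeR adjusted p = 0.0238), and against replicates 3 and 4 alone it was 0.48 (edgeR adjusted p = 0.0348). Ppp1r3b, with the fewest reads of the 4, ranged from 0.69 with a pseudocount of 2 CPM to 1.80 without wild-type replicate 1. It was 1.11 against wild-type replicates 1 and 2 alone (edgeR adjusted p = 0.580) and 1.79 against replicates 3 and 4 alone (edgeR adjusted p = 0.0231).

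**Figure D2:**
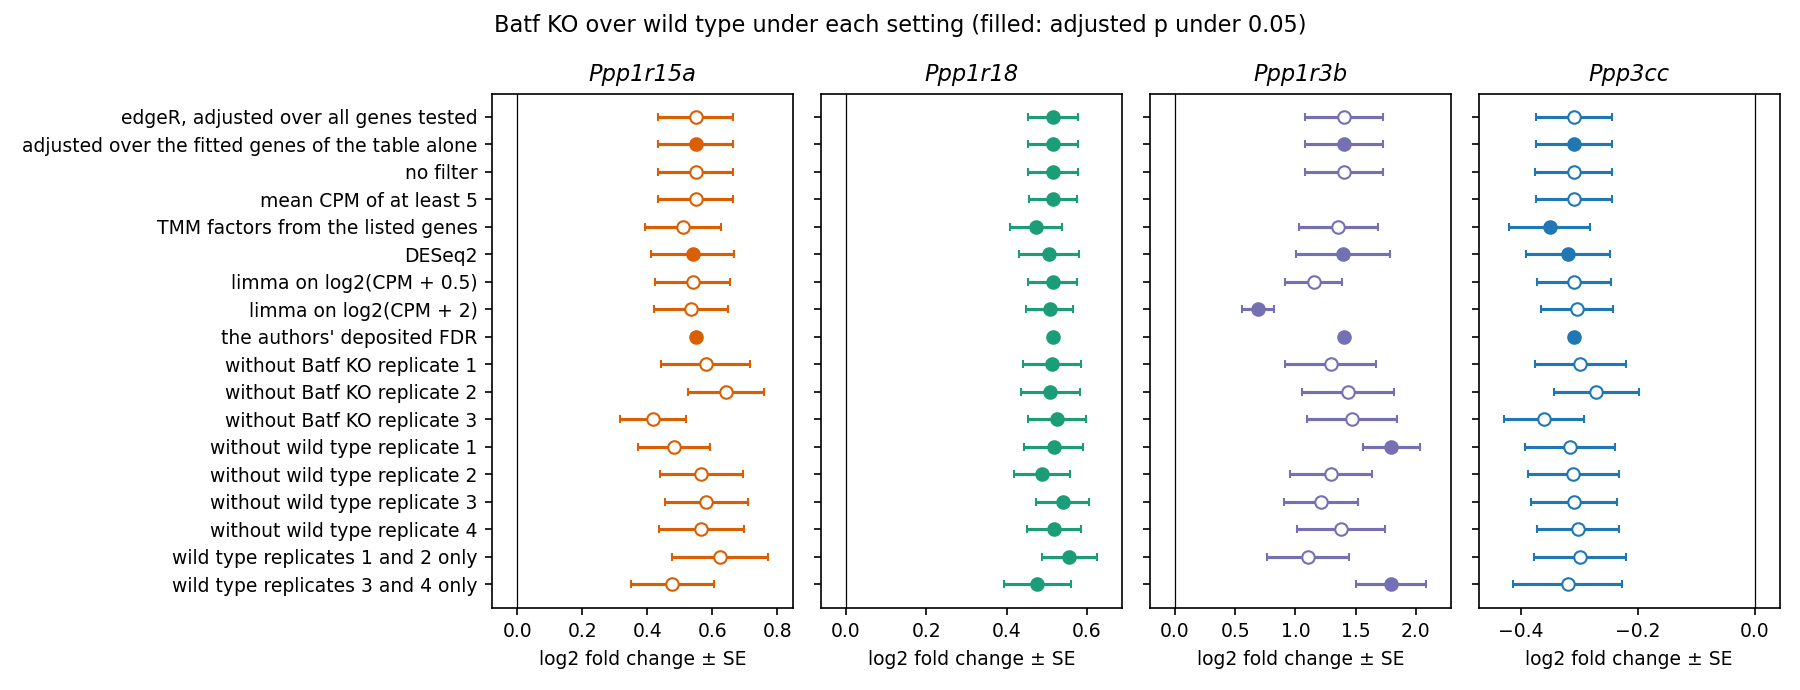
Log2 fold change, Batf KO over wild type, of the 4 fitted Ppp genes under each way of testing, with bars of 1 SE where a fit gives it. Filled points passed an adjusted p of 0.05 and open points did not. Ppp1r18 is filled under each setting drawn, and the other 3 genes keep their side of 0 while their call varies.

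Levels per kilobase of exon put the genes on a common scale. In Batf KO the mean was 59.8 CPM per kb for Ppp1r15a, 28.9 for Ppp1r18, 27.3 for Ppp3cc, 0.488 for Ppp1r3b and 0.130 for Ppp1r42. In wild type it was 40.9 for Ppp1r15a, 33.9 for Ppp3cc, 20.2 for Ppp1r18, 0.184 for Ppp1r3b and 0.0288 for Ppp1r42. Ppp1r18 and Ppp3cc thus stood in opposite order in the genotypes. The order in Batf KO was not clear of the spread, since Ppp1r18 ran from 28.5 to 29.2 CPM per kb there and Ppp3cc from 25.8 to 29.2. In wild type the ranges were apart, at 19.1 to 21.2 CPM per kb for Ppp1r18 and 33.4 to 34.3 for Ppp3cc. Within a library, the ratio of Ppp1r18 to Ppp3cc CPM was 1.41 to 1.64 across Batf KO libraries and 0.816 to 0.907 across wild-type libraries. Both genes had been listed for opposite differences between these libraries, so the separation of this ratio follows from the selection.

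The Ppp genes were placed among all listed genes by the size of their difference. By the size of the authors' log2 fold change among 384 higher genes, Ppp1r42 ranked 24, Ppp1r3b 56, Ppp1r15a 240 and Ppp1r18 260. Ppp3cc ranked 360 of 368 lower genes, near the smallest decrease that was listed. By the authors' p-value over all 752 genes the order was different, with Ppp1r18 at rank 136, Ppp1r15a at 220, Ppp1r3b at 295, Ppp3cc at 607 and Ppp1r42 at 736. The median log2 fold change was 0.59 over the fitted genes that were higher in Batf KO, above the 0.55 of Ppp1r15a and the 0.52 of Ppp1r18 and below the 1.40 of Ppp1r3b. It was -0.64 over the fitted genes that were lower, where Ppp3cc had -0.31. Over both directions the median was 0.53 for the 4 fitted Ppp genes and 0.30 for all 667 fitted genes, which reflects how many genes of each set were higher.

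**Figure D3:**
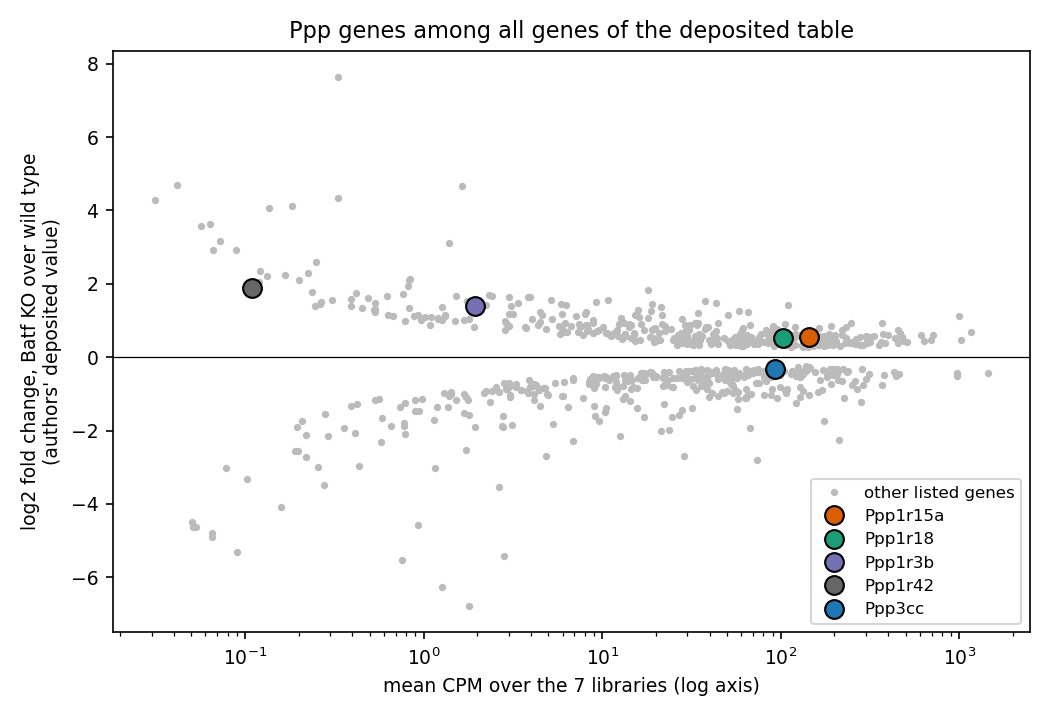
The authors' deposited log2 fold change, Batf KO over wild type, of all 752 listed genes against the mean CPM over the 7 libraries on a log axis. Coloured points are the 5 Ppp genes. Ppp1r15a, Ppp1r18 and Ppp3cc sit near 100 CPM, and of these only Ppp3cc lies close to the inner edge of the listed genes. Ppp1r3b and Ppp1r42 sit at low levels with larger fold changes.

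Genes around each Ppp gene were looked up within 500 kb on either side. Ppp1r18 had 1 listed neighbour, the immediate early gene Ier3, 42.7 kb away, at 2.53 ± 0.624 CPM (SD, n = 3) in Batf KO and 1.24 ± 0.330 CPM (SD, n = 4) in wild type. Its adjusted p in edgeR's test was 0.140. Ppp3cc had 2 listed neighbours. One was Fgf17, a gene too low to be fitted, at 0.138 ± 0.0689 CPM (SD, n = 3) in Batf KO and 0.0119 ± 0.0137 CPM (SD, n = 4) in wild type. The nearer was Pdlim2, 40.2 kb away, at 15.5 ± 1.06 CPM (SD, n = 3) in Batf KO and 10.9 ± 0.517 CPM (SD, n = 4) in wild type (edgeR adjusted p = 0.0557). Ppp1r15a had Prr12, at 17.4 ± 2.19 CPM (SD, n = 3) in Batf KO and 25.2 ± 1.52 CPM (SD, n = 4) in wild type (edgeR adjusted p = 0.0587). Ppp1r3b had Mfhas1, at 123 ± 4.30 CPM (SD, n = 3) in Batf KO and 97.4 ± 10.5 CPM (SD, n = 4) in wild type (edgeR adjusted p = 0.174). Ppp1r42 had no listed neighbour. None of the 5 Ppp genes lies on chromosome 12, where Batf is.

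Genes of the pathways in which these phosphatases act were counted from lists. Their counts are to be read against the 3.81% of tested genes that were listed and the 42.9% of fitted genes that passed, 20.1% as higher and 22.8% as lower. Of 28 genes of calcineurin and NFAT signalling, 3 were listed and these 3 passed edgeR's test adjusted over all genes, 2 higher and 1 lower. All 3 had been selected for a difference, and their number is too small to describe the list. Orai1, the pore subunit of the calcium release-activated channel upstream of calcineurin, was at 53.7, 49.7 and 39.2 CPM in Batf KO and at 21.8, 23.4, 26.9 and 27.1 CPM in wild type. It rose 1.92-fold (edgeR adjusted p = 0.00852). Nfatc1, an NFAT factor that calcineurin dephosphorylates, rose 1.54-fold, to 109 ± 8.14 CPM in Batf KO (SD, n = 3), against 70.7 ± 1.82 CPM in wild type (SD, n = 4) (edgeR adjusted p = 0.00311). Egr2, a zinc finger factor gene that NFAT induces in T cells, fell 3.08-fold, to 11.2 ± 1.86 CPM in Batf KO (SD, n = 3), against 34.5 ± 7.27 CPM in wild type (SD, n = 4) (edgeR adjusted p = 0.00490). Ppp3cc, not counted in that list, was lower in Batf KO like Egr2, while Orai1 and Nfatc1 were higher.

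Of 22 genes of the integrated stress response, which Ppp1r15a closes, 1 was listed. This was Atf3, a stress-induced bZIP factor, at 57.8, 64.5 and 45.6 CPM in Batf KO and at 31.4, 43.9, 34.9 and 26.4 CPM in wild type (edgeR adjusted p = 0.130). The library with the highest Ppp1r15a, Batf KO replicate 3, had the lowest Atf3 of the 3 Batf KO libraries. Of 21 glycogen genes, 1 was listed, the gene annotated as Pgm1 on chromosome 5. It was at 14.5 ± 0.936 CPM (SD, n = 3) in Batf KO and 19.8 ± 3.08 CPM (SD, n = 4) in wild type. Its edgeR adjusted p was 0.304.

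No gene was listed among 18 PP2C phosphatases, 29 annotated partners of protein phosphatase 1 without a Ppp symbol, or 22 annotated partners of protein phosphatase 2A. Of 24 annotated dual specificity phosphatases 3 were listed, and 1 passed, where 42.9% of all fitted genes did. Dusp10, which acts on the JNK and p38 kinases, fell 1.73-fold, to 15.4 ± 0.882 CPM in Batf KO (SD, n = 3), against 26.7 ± 3.33 CPM in wild type (SD, n = 4) (edgeR adjusted p = 0.0145). Dusp1 and Dusp22 were higher in Batf KO, with edgeR adjusted p of 0.0796 and 0.107. Of 39 annotated protein tyrosine phosphatases 4 were listed, 3 were fitted and 1 passed, again beside 42.9% of all fitted genes. The receptor phosphatase gene Ptprj, which encodes CD148, rose 1.68-fold, to 38.1 ± 2.27 CPM in Batf KO (SD, n = 3), against 22.8 ± 4.06 CPM in wild type (SD, n = 4) (edgeR adjusted p = 0.0326). Ptpn12 was lower and Ptpn3 higher, with edgeR adjusted p of 0.0572 and 0.109, and Ptprm was below 1 CPM. Of the 5 genes of these lists that passed, 5 also passed against wild-type replicates 1 and 2 alone and 3 against replicates 3 and 4 alone. The exceptions there were Dusp10 (edgeR adjusted p = 0.0691) and Ptprj (edgeR adjusted p = 0.0990), each with the same direction. Of all 667 fitted genes, 70 passed as higher and 85 as lower against replicates 1 and 2 alone. Against replicates 3 and 4 alone, 119 passed as higher and 131 as lower. The 5 genes had been picked for passing with all libraries, which include these pairs, so passing again is no independent check.

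**Figure D4:**
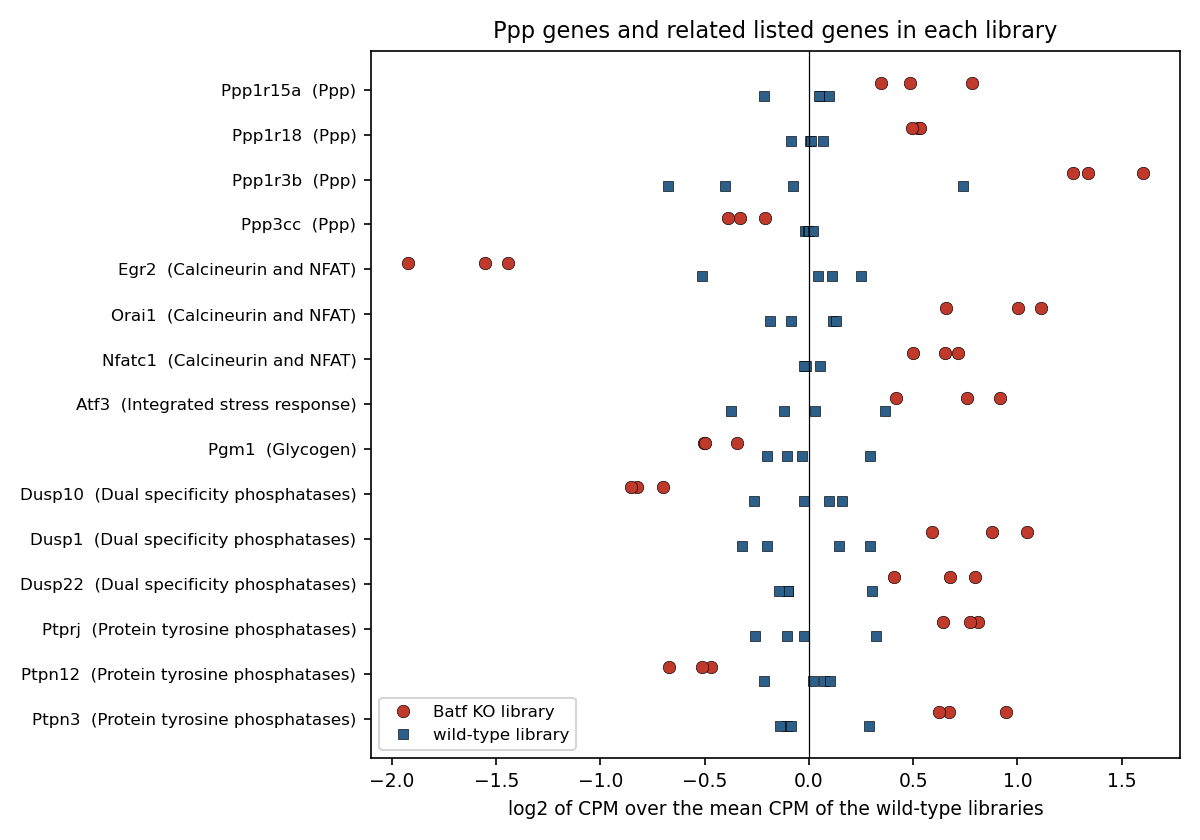
CPM of each library relative to the mean CPM of the wild-type libraries, on a log2 axis, for the 4 fitted Ppp genes and the 11 fitted listed genes of the related lists. Circles are Batf KO libraries and squares are wild-type libraries. Egr2 lies furthest to the left, at 3.08-fold lower in Batf KO, and Ppp1r3b has the circles furthest to the right.

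For each Ppp gene the listed genes with the most similar pattern were found. The measure was the root mean square difference of log2(CPM + 0.5) over the 7 libraries, each gene centred on its own mean. Among the nearest to Ppp1r18 were Sik3 (0.0406) and Ttyh3 (0.0477), where the median over 666 genes was 0.439. Nearest to Ppp3cc were Cyld (0.0453), Mef2c (0.0493) and Tank (0.0511), with a median of 0.379. Cyld, a deubiquitinase gene, was at 113 ± 2.29 CPM (SD, n = 3) in Batf KO and 135 ± 3.67 CPM (SD, n = 4) in wild type. The nearest genes to Ppp1r15a were less close, namely Gpcpd1 (0.114), Gm26541 (0.128) and Cdk5r1 (0.136), with a median of 0.473. Gpcpd1 shared the high value of Batf KO replicate 3, at 191, 193 and 220.0 CPM in Batf KO replicates 1 to 3. Ppp1r3b was nearest to Krt222 (0.206), Htra4 (0.218) and Sfn (0.231), with a median of 0.728. Ppp1r42 was nearest to Rfc1 (0.0490), Arhgap17 (0.0506) and Alpl (0.0539), and its levels lie below the pseudocount of 0.5 CPM. All these genes had been selected for a genotype difference, so that likeness among them is partly set by the selection.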

How the data were processed

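The deposited table gives, per the file headers, the read count of each gene in each library and the CPM that the authors computed from it. It also holds the authors' comparison as log2 fold change, log2 mean CPM, likelihood ratio (a score), p-value and FDR. Build mm10 and the tools edgeR 3.03, HTSeq 0.5.3p7 and TopHat2 2.0.6 stand in the submitters' processing notes, without roles. Groups came from the genotype label, and replicate numbers follow accession order.

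The number of genes the authors tested was recovered from the ratio of FDR to p-value, and effective library sizes from count over CPM. Counts of the 667 genes with a mean of at least 1 CPM were tested with edgeR 4.0.16 (quasi-likelihood, R 4.3.3), two-sided, by Benjamini-Hochberg over all genes the authors tested. The SE is the log2 fold change over the square root of F. The step was tested on simulated data. DESeq2 1.42.0, limma 3.58.1, other filters and scalings, leaving out each library and testing against each pair of wild-type libraries were alternatives. Because the fit holds selected genes only, its estimate of spread may be too small.

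Positions and exonic lengths came from GENCODE M21 (GRCm38, the assembly also called mm10), which held 742 of 752 identifiers. All Ppp genes are named; from each list the listed genes, and for each Ppp gene the 3 of most similar pattern, were named, apart from 1 gene similar to Ppp1r18 that is not reported here. The members and lists were chosen with earlier results of these data known.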

Additional observations from a re-analysis of the deposited data

Results flagged for a closer look

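Dixon's test for a single deviating value, at its 95% level, was run on the 4 wild-type CPM values of 21 genes, namely the Ppp genes and the listed genes of the related lists. Chance gives about 1 in 20, or 1.05 here, and 4 genes had such a value. Ppp1r15a stood low in wild-type replicate 1 (103 CPM), whereas its other 3 wild-type values were 124 to 128 CPM. Nfatc1 stood high in wild-type replicate 4 (73.4 CPM), beside 69.6 to 70.1 CPM elsewhere in wild type. Dusp22 stood high in wild-type replicate 3 (13.4 CPM), beside 9.84 to 10.1 CPM. Ptpn3 stood high in wild-type replicate 1 (2.71 CPM), beside 2.01 to 2.09 CPM. The cause was not tested, and groups of 3 Batf KO libraries are too small for the test.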

How the results depend on the processing

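No log2 fold change of the 4 fitted Ppp genes changed sign under any alternative run, and Ppp1r18 passed in all of them except with a 2-fold minimum, at 0.47 to 0.56 on the log2 scale. The number of Ppp genes that passed was 1 in the main test. It was 4 (0.55 for Ppp1r15a, 1.40 for Ppp1r3b and -0.31 for Ppp3cc) when p-values were adjusted over the fitted genes alone, 4 (0.54, 1.40 and -0.32) in DESeq2, and 5 (0.55, 1.40 and -0.31, with Ppp1r42) by the authors' FDR. It was 2 with TMM factors (Ppp3cc, -0.35) and 2 in limma on log2(CPM + 2) (Ppp1r3b, 0.69), and 0 with a 2-fold minimum. With a library left out it was 1 to 2, the higher number without wild-type replicate 1. Ppp1r3b then ranged from 1.22 to 1.80, with edgeR adjusted p of 0.0138 to 0.422. Chosen after seeing the data, tests against 1 pair of wild-type libraries gave 1 with replicates 1 and 2 only and 2 with replicates 3 and 4 only (Ppp1r3b, 1.79). Over all listed genes, the main counts of 134 higher and 152 lower became 339 and 328 adjusted over the fitted genes, 253 and 299 in DESeq2, 384 and 368 by the authors' FDR, and 31 and 55 with a 2-fold minimum. The counts were 112 and 198 with TMM factors, and 136 and 163 in limma on log2(CPM + 2). With a library left out they were 50 to 124 higher and 78 to 139 lower. The lowest came without Batf KO replicate 2. With wild-type replicates 1 and 2 only they were 70 and 85, and with wild-type replicates 3 and 4 only 119 and 131. Without Batf KO replicate 1 they were 57 and 82, and without Batf KO replicate 3 they were 86 and 86. The adjustments and the fold minimum act by construction. Leaving out libraries makes the groups smaller, but the counts also differed by which libraries were left out. The cause of that, and of the other changes, was not tested. Ppp1r3b had no value with a minimum of 5 CPM. No paired analysis was possible because the replicate numbers follow accession order and no number in the sample titles occurs in both groups. Low depth limits Ppp1r42, with 7 reads in wild type, and Ppp1r3b, with 161.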
